A study of Homo sapiens with 6 samples.

Results

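The R-loop peaks described here are the very wide ones, chosen by their width alone: every peak of 2000 bp or more in the list of untreated or of N2-heptynyl-dG-treated HEK293T cells. There were 651 such peaks among 10231 in the untreated list and 625 among 11085 in the treated list. Joined across the lists where they overlapped on the same strand, they formed 844 loci, of which 432 were wide in both lists, 219 in the untreated list only and 193 in the treated list only. HEK293T is a human embryonic kidney cell line. One group was cultured without the nucleoside, and the other was given N2-heptynyl-dG, a guanine nucleoside with an alkyl chain on its minor-groove nitrogen, at 10 μM for 3 h. Cells of both groups were then labeled with 5 mM N3-kethoxal for 10 min. The labels name 2 spKAS-seq samples of each group and 2 inputs, and the analysis used 1 list of peaks per condition, with the position and strand of each peak and no height, so the depth behind a peak is unknown. No value has a spread between replicates, and no difference between conditions was tested. The 95% Wilson intervals given with shares cover counting error over peaks, which are not replicates.

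An R-loop forms when a nascent RNA pairs with the template strand of the DNA and leaves the other strand unpaired. N3-kethoxal reacts with unpaired guanine, so in spKAS-seq, which enriches and sequences kethoxal-labeled DNA and keeps its strand, an R-loop is seen as signal on one strand. R-loops are known at promoters, where transcription starts, and at the 3′ ends of genes, where RNA polymerase II keeps transcribing past the cleavage and polyadenylation site until it is released.

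The widest R-loop of both lists lay on SNHG19, a noncoding host gene of a small nucleolar RNA (snoRNA), and had the same borders in untreated and treated cells, chr16:2200001-2205500 on the minus strand of GRCh37 (hg19), which is 5500 bp. The next widest in either list were those of ID3, a dominant-negative inhibitor of basic helix-loop-helix transcription factors, and RPL10, a protein of the large ribosomal subunit, both of 4500 bp in untreated cells, and one of 4500 bp downstream of HSPA8, the constitutive Hsp70 chaperone, in treated cells. The DNA shown next is that at the annotated gene start, which is not the border of the peak. For the 6 widest loci that cover a transcription start, with ties taken in chromosome order, the 50 bases before the annotated start are given on the strand of the gene, and for the noncoding genes SNHG19 and SNHG25 the 50 bases after it as well. Capitals mark the letters TATAA, searched on the strand of the gene only.
SNHG19, chr16:2205357-2205456, minus strand: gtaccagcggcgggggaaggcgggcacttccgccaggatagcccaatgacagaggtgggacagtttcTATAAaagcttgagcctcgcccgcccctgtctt
ID3, chr1:23885993-23886042, minus strand: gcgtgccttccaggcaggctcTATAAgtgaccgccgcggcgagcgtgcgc
RPL10, chrX:153626668-153626717, plus strand: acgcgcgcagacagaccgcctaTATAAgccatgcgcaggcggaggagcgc
TUBB4B, chr9:140135689-140135738, plus strand: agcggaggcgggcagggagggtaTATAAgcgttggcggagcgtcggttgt
MRPL53, chr2:74699808-74699857, minus strand: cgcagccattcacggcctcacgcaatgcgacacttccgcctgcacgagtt
SNHG25, chr17:62223247-62223346, plus strand: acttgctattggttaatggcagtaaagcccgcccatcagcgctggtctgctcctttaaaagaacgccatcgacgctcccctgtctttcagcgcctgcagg
The letters lie before the start of ID3, RPL10 and TUBB4B, a beta-tubulin, and after the annotated start of SNHG19. They are in the 50 bases before the start of 6.47% of 20098 protein-coding genes. Within 50 bases on both sides of the start, they are found at 7.22% of 18592 noncoding (lncRNA) genes. How often they occur at the other starts under wide or narrower peaks was not counted, so nothing is read from these 6 loci.

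Most wide peaks, in contrast, covered or followed the end of a gene. For the 4 widest peaks that lay downstream of a coding gene with no annotated gene of any kind under them, ties again in chromosome order, the central 100 bases are given on the strand of the peak, with G, the base N3-kethoxal reacts with, in capitals.
HSPA8 downstream, chr11:122925394-122925493, minus strand: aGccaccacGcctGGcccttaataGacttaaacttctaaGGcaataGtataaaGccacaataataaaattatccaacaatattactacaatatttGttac
ENO1 downstream, chr1:8918602-8918701, minus strand: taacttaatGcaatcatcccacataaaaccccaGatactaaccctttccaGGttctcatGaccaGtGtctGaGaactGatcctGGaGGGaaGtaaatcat
RPS12 downstream, chr6:133140782-133140881, plus strand: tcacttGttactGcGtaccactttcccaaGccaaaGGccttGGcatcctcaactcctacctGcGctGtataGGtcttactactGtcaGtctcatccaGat
ANP32E downstream, chr1:150187405-150187504, minus strand: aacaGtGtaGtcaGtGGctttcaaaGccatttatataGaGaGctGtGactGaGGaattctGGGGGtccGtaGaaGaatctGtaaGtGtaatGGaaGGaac
Over the whole peaks G made up 23.2% of the bases downstream of HSPA8, 25.2% downstream of ENO1, 22.6% downstream of RPS12 and 22.5% downstream of ANP32E. The 4 printed stretches hold 10, 16, 16 and 30 G in that order.

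Widths fall on a grid of 250 bp. The median width of the chosen peaks was 2250 bp in both lists, and 70 untreated and 65 treated peaks reached 3000 bp. Just inside the limit stood 268 untreated and 244 treated peaks of 2000 bp, such as untreated peaks inside SAMD11 (chr1:867116-869115) and downstream of C1orf159 (chr1:1014116-1016115), and treated peaks downstream of GNB1-DT (chr1:1825866-1827865) and opposite to ENSG00000228037 (chr1:2513866-2515865). Just outside it stood 353 untreated and 308 treated peaks of 1750 bp, such as those inside AGRN (chr1:965116-966865) and at the end of FNDC10 (chr1:1532116-1533865) in the untreated list, and those inside AGRN (chr1:964866-966615) and at the end of ATAD3B (chr1:1433116-1434865) in the treated list. Although only 6.36% of untreated peaks (5.91% to 6.85%) and 5.64% of treated peaks (5.22% to 6.08%) passed the limit, they held 16.7% and 15.4% of all base pairs in the lists. The strands were near balance, with 331 plus and 320 minus peaks in untreated cells and 304 and 321 in treated cells. On contigs that are unplaced or unlocalized lay 7 untreated members (1.08%, 0.522% to 2.20%) and 9 treated ones (1.44%, 0.759% to 2.71%). Of narrower peaks, 0.459% (0.342% to 0.616%) and 0.411% (0.305% to 0.553%) lay there. On chromosome Y there were 2 and 1 wide peaks (0.307% and 0.160%), against 0.0939% and 0.105% of narrower peaks.

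The position of each peak was read against the canonical transcripts of protein-coding and lncRNA genes on its own strand. A peak was counted as covering a start, an end, or both. A peak covering neither was counted as inside a gene, or as downstream if its 5′ border lay within 5 kb after an end. In untreated cells 318 of 651 wide peaks were downstream (48.8%) and 145 covered an end without a start (22.3%, 19.2% to 25.6%). Another 76 lay inside a gene, 35 covered a start only, 30 a start and an end, and 33 had no gene. The remaining peaks were 11 that overlapped only a gene of the opposite strand and 3 that met a same-strand gene record outside its canonical transcript. In treated cells the same order held, with 313 downstream (50.1%), 136 on an end (21.8%, 18.7% to 25.2%), 68 inside, 40 on a start, 19 on both, 30 with no gene, 14 opposite a gene and 5 on a record only.

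Peaks under 2000 bp had another makeup. Covering an end or lying downstream was the position of 71.1% of wide untreated peaks (67.5% to 74.5%) and of 24.8% of the narrower ones, and of 71.8% (68.2% to 75.2%) and 23.5% in the treated list. A start was covered by 9.98% of wide untreated peaks (7.91% to 12.5%) against 33.1% of narrower ones (32.2% to 34.1%), and by 9.44% against 34.2% (33.3% to 35.1%) after treatment. An end was covered by 26.9% of wide untreated peaks (23.6% to 30.4%) against 4.23% of narrower ones (3.84% to 4.65%), and by 24.8% (21.6% to 28.3%) against 3.85% (3.50% to 4.24%) after treatment. A wide peak offers more bases on which a start or an end can fall. Within the central 500 bp, which gives wide and narrower peaks windows of one length, a start was found in 1.23% of wide untreated peaks and 27.2% of narrower ones, and an end in 5.99% and 2.15%. The treated list gave 1.12% and 28.2% for starts and 5.60% and 1.98% for ends.

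**Figure D1:**
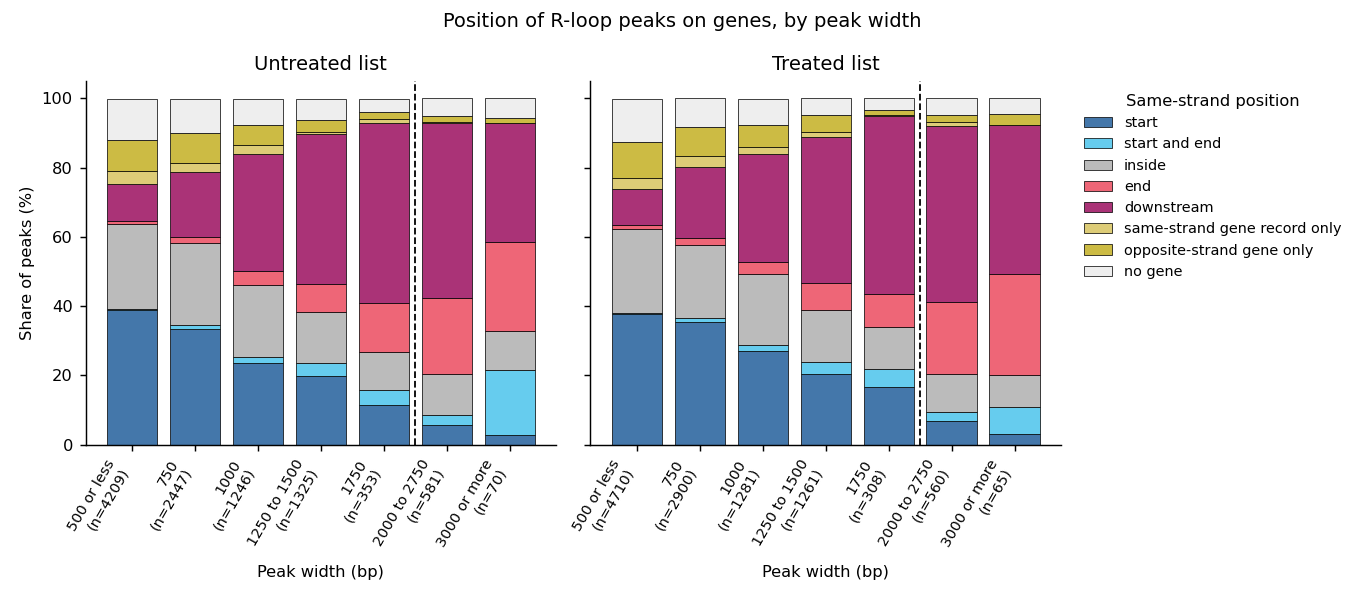
Share of peaks (y axis, %) by position on same-strand genes, for peaks grouped by width in bp (x axis) in the untreated (left) and treated (right) lists; the number of peaks stands under each bar and the dashed line is the width limit. The share covering a start only fell from 38.9% of untreated peaks of 500 bp or less to 2.86% at 3000 bp or more, while end and downstream peaks filled most of the bars right of the line.

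The makeup changed with width on both sides of the limit. Among untreated peaks, the share that covered a start only was 38.9% at 500 bp or less, 33.5% at 750 bp, 23.7% at 1000 bp, 11.3% at 1750 bp and 5.68% between 2000 and 2750 bp. Downstream peaks were 10.6%, 19.0%, 33.9%, 51.8% and 50.6% of the same groups. Across the limit itself, from 1750 bp to between 2000 and 2750 bp, the share on an end only went from 14.2% (10.9% to 18.2%) to 21.9% (18.7% to 25.4%) untreated and from 9.42% (6.64% to 13.2%) to 20.9% (17.7% to 24.5%) treated. The treated share on a start only went from 16.6% (12.8% to 21.1%) to 6.79% (4.98% to 9.18%), and the downstream share from 51.3% to 50.9%. Of untreated peaks of 3000 bp or more, 34.3% were downstream (24.2% to 46.0%). Another 25.7% covered an end (16.9% to 37.0%) and 18.6% both a start and an end (11.2% to 29.2%). The 65 treated peaks of that width held 43.1% downstream (31.8% to 55.2%), 29.2% on an end (19.6% to 41.2%) and 7.69% on both (3.33% to 16.8%).

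The borders of peaks that covered an end or lay downstream were measured from that end. In untreated cells their 5′ border had a median of 417 bp after the gene end, with quartiles at -330 and 1030 bp, and their 3′ border a median of 2631 bp, with quartiles at 1994 and 3355 bp. In treated cells the medians were 465 and 2752 bp. How far the 3′ border reached is in part set by the width limit. The gene that ended there was protein-coding for 92.2% and 93.5%, and its canonical transcript had a median length of 13310 and 13904 bp. Narrower peaks of these positions followed genes with medians of 18273 and 17384 bp. The start of the same gene lay in a peak of the same list for 31.5% of untreated wide peaks (27.5% to 35.9%) and 36.3% of treated ones (32.0% to 40.8%), and for 24.3% (22.6% to 26.1%) and 27.0% (25.3% to 28.8%) of narrower peaks. The wide peaks covered the end of or followed 462 different genes in untreated cells and 448 in treated cells, of which 303 were the same. A gene counted in one list only can have a narrower peak in the other, as the limit was applied to each list. The like count was not made for narrower peaks, so nothing is read from this overlap.

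**Figure D2:**
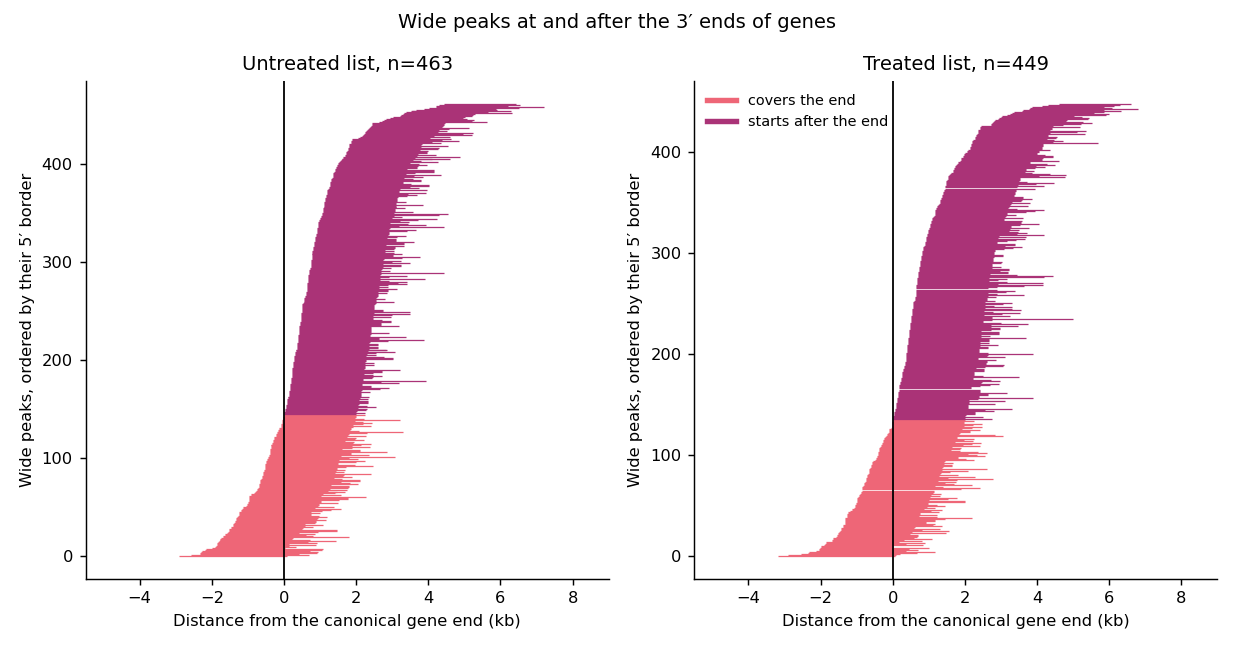
Every wide peak that covers a gene end or begins after one, drawn as a line from its 5′ to its 3′ border (x axis, kb from the canonical end, with transcription to the right) and ordered by its 5′ border (y axis), for 463 untreated (left) and 449 treated (right) peaks. Most lines begin within 1 kb of the end and reach 2 to 4 kb past it.

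Wide peaks that lay on no gene of their own strand mostly followed the end of one. A gene of the same strand, by its full record, was under 324 untreated wide peaks (49.8%, 45.9% to 53.6%) and 296 treated ones (47.4%, 43.5% to 51.3%), against 63.4% and 63.6% of narrower peaks. Only an opposite-strand gene was under 87 untreated and 93 treated wide peaks. Of these, 76 (87.4%, 78.8% to 92.8%) and 79 (84.9%, 76.3% to 90.8%) lay within 5 kb after the end of a gene on their own strand. No coding or lncRNA gene of either strand was under 240 and 236 wide peaks, and 207 (86.2%, 81.3% to 90.0%) and 206 (87.3%, 82.4% to 90.9%) of those lay after a same-strand end. Many narrower peaks did so too. Only an opposite-strand gene was under 1230 untreated and 1450 treated narrower peaks, and 721 and 871 of these did not follow such an end. No gene was under 2279 and 2356 narrower peaks, and 933 and 1008 of these did not follow one. The wide peaks that did not follow one were 11 of 87 and 14 of 93 with only an opposite-strand gene. With no gene they were 33 of 240 and 30 of 236. Wide peaks that touched a peak of the opposite strand in their own list were rare, at 1 of 651 untreated (0.154%, 0.0271% to 0.865%) and 3 of 625 treated (0.480%, 0.163% to 1.40%), against 9.13% and 9.65% of narrower peaks.

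Of the 844 loci, 100 had a peak of 3000 bp or more in at least 1 list, and most of these are named here. By the position of the wider peak, 38 were downstream of a gene, 28 covered an end, 14 a start and an end, 10 lay inside a gene, 4 covered a start, 2 lay opposite to a gene and 4 had no gene. They were wide in both lists at 85 loci, reached 3000 bp in both at 35, and had the same width in both at 13. Where the other list held several peaks at a locus, the width of its widest is given.

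Of the downstream loci, those after genes of the ribosome, translation and the nucleolus are given first. Downstream of RPL10A, a protein of the large ribosomal subunit, the peak was 3750 bp wide in untreated cells (chr6:35438751-35442500) and 3500 bp in treated cells (chr6:35439251-35442750), beginning 194 and 694 bp after the end of the gene. Downstream of RPS12, of the small subunit, both lists held the same 3500 bp (chr6:133139082-133142581), from 379 to 3878 bp after the end. RPS24 had the same 3750 bp in both lists. RPL37A had 3000 bp untreated and 3250 bp treated, RPL21 had 2000 and 3000 bp, and RPL7 had 3000 and 2750 bp. Of the translation initiation factor eIF3, EIF3C had 3000 and 2750 bp and its near-identical copy EIF3CL 2750 and 3000 bp. Reads of such copies can be assigned to either, so these are uncertain. Nucleolar proteins were represented by NPM1, the chaperone nucleophosmin, with 2750 bp untreated and 3000 bp treated, and MYBBP1A, with 3000 and 3500 bp.

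The widest downstream peak of either list was the treated one of HSPA8. The gene carried a start peak of 1500 bp untreated and 1000 bp treated, then no peak over the rest of the gene, and then a downstream peak of 3250 bp untreated (chr11:122923944-122927193) and 4500 bp treated (chr11:122923194-122927693). The treated peak ran from 504 to 5003 bp after the end and the untreated one from 1004 to 4253 bp. HSP90AA1, the stress-inducible Hsp90 chaperone, had 2000 bp untreated and 3250 bp treated. CCT4, a subunit of the chaperonin that folds actin and tubulin, had 2750 and 3000 bp. ENO1, the glycolytic enzyme enolase, had 2500 bp untreated (chr1:8918152-8920651) and 3500 bp treated (chr1:8916902-8920401). SLC25A6, an ADP/ATP carrier of the mitochondrial membrane, lies in the pseudoautosomal region, where X and Y carry the same sequence. Its downstream peak was listed on X at 3250 bp untreated and 3000 bp treated, and on Y at 3500 and 3000 bp. The X and Y entries are not separate observations.

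RNA-binding proteins included TRA2B, a splicing activator, with 2750 bp downstream in untreated and 3250 bp in treated cells. Other downstream loci lay after CDCA8 and RRM2, the small subunit of ribonucleotide reductase, after NELFE, a subunit of the factor that pauses RNA polymerase II, and after ANP32E, UBE2D3, SNX5, MRPS18A, JMJD4, IFRD2, HM13, TRMT61A, ZNF92, ZNF282 and the coding record ENSG00000251357. Those after noncoding genes followed XIST, ENSG00000243960, ENSG00000290948, ENSG00000290823 and ENSG00000268798. In all of these the wider of both peaks measured between 3000 and 3750 bp.

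**Figure D3:**
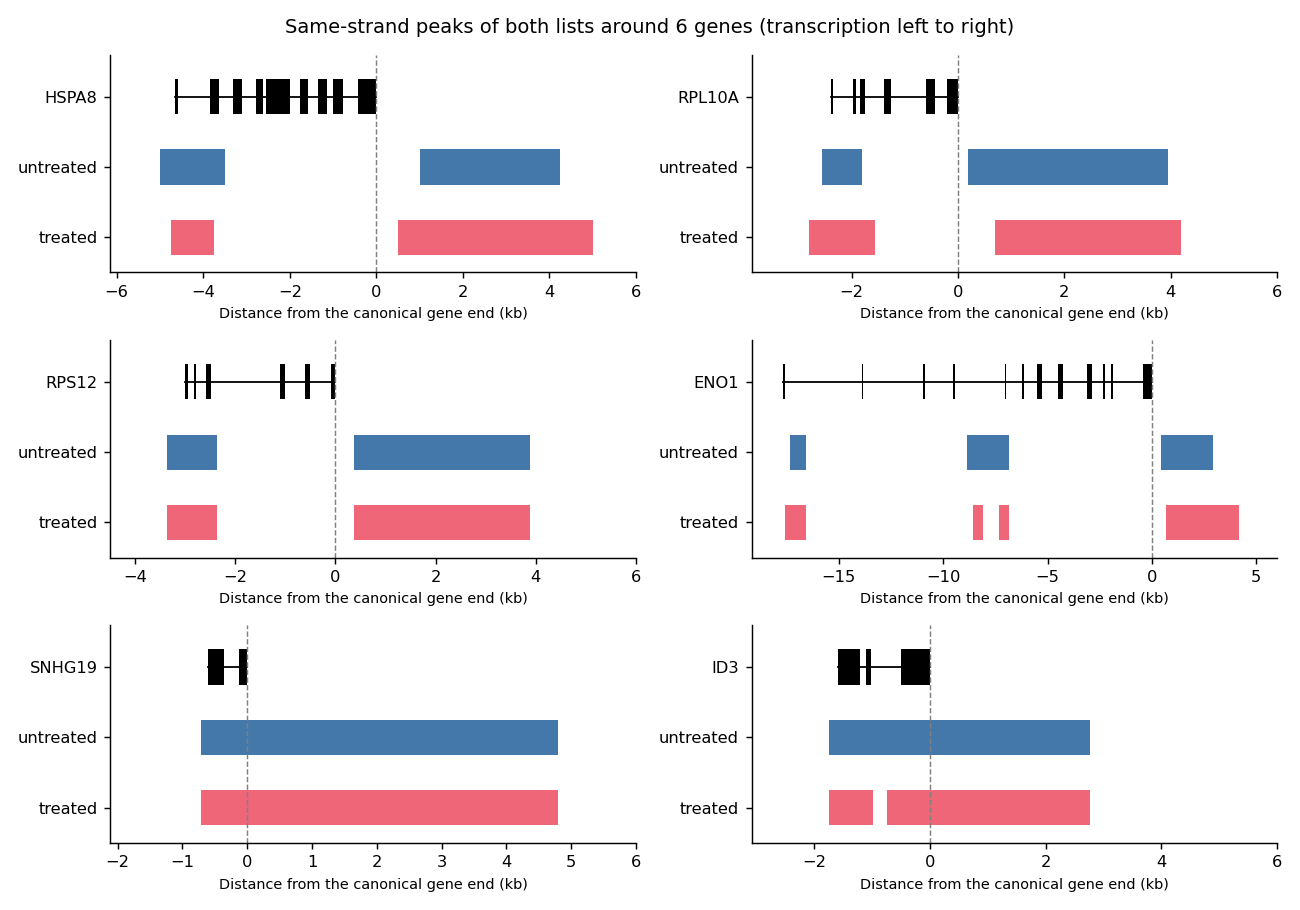
Peaks of the untreated (blue) and treated (red) lists on the strand of the gene at HSPA8, RPL10A, RPS12, ENO1, SNHG19 and ID3, with the exons of the canonical transcript in black; the x axis is the distance from the gene end in kb, to a different scale in each panel. At the first 4 genes a separate peak lies near the start and a wide one after the end. ENO1 also has peaks inside the gene, of 2000 bp untreated and of 500 bp treated. At SNHG19 in both lists and at ID3 in the untreated list, the wide peak extends over the whole gene and beyond its end. The treated wide peak of ID3 begins 846 bp after the start.

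Among the 28 loci on a gene end, ACTG1, the cytoplasmic gamma-actin, had 3500 bp untreated (chr17:79473931-79477430) and 3250 bp treated (chr17:79473681-79476930), and the untreated peak ran from 433 bp before to 3066 bp after its end. NCL, the nucleolar protein nucleolin, had 2250 and 3000 bp, and HNRNPDL, an RNA-binding protein of the hnRNP family, had 3500 and 3000 bp. PPP1R9B had 3500 bp untreated and 3250 bp treated, and CBX6, a Polycomb protein, 3250 and 3500 bp. RPL28 and RPS23 were the ribosomal proteins of this group, with 3000 bp untreated and 2000 bp treated for the first and 2750 and 3000 bp for the second. SET, PPIA (cyclophilin A), RBM3 (a cold-inducible RNA-binding protein), LUC7L3, RANGAP1 (the GTPase activator of Ran), RRP7A, POLR2E (a subunit shared by the nuclear RNA polymerases), CCT5, DBF4, YWHAZ, STC2, NRARP, SCARF2, ZNF195, ZNF316, C19orf25, OGFR, PAGR1, NBPF12 and the noncoding ENSG00000272512 and ENSG00000276791 made up the rest. RRP7A, RRP7BP and NBPF12 belong to families with close copies.

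Whole genes lay under 25 untreated wide peaks (3.84%, 2.61% to 5.61%) and 15 treated ones (2.40%, 1.46% to 3.92%). Of narrower peaks, 0.710% and 0.641% covered one, and a wide peak has more room to do so. Where an untreated wide peak covered both a start and an end, the gene had a median canonical length of 1077 bp. SNHG19 is 614 bp long in its canonical transcript, and its peak began 94 bp before the start and ran 4792 bp past the end. ID3 is 1576 bp long, and its untreated peak (chr1:23881647-23886146) began 154 bp before the start and ran 2770 bp past the end. In treated cells it was listed as 2 peaks, 1 of 750 bp on the start and 1 of 3500 bp from 729 bp before to 2770 bp after the end, so that both lists shared the outer borders. RPL10 had 4500 bp untreated and, as the wider of 2 treated peaks, 2750 bp. TUBB4B had 3750 and 2500 bp, again with 2 treated peaks, and ID1 had 3500 and 1250 bp, likewise with 2. SNHG25 had 3500 and 3250 bp. At the replication-dependent histone genes H2BC18 and H3C13 both lists held the same 3000 bp. MRPL53 (2000 and 3500 bp), CENPB (3000 and 2500 bp), FGFRL1 (3000 and 2500 bp), ADM5 (3000 and 2750 bp), AC005606.1 (3250 bp in both), ENSG00000262877 (3250 and 3000 bp) and ENSG00000239775 (3000 and 1250 bp) completed the loci with a start and an end of the same or a neighbouring gene.

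Inside genes the widest peak was on ENSG00000290951, a noncoding gene, with 2000 bp untreated and 3750 bp treated. SNHG16 followed with the same 3500 bp in both lists, and MATR3, a nuclear matrix RNA-binding protein, with the same 3250 bp. NEAT1, the architectural RNA of paraspeckles, had 3250 bp untreated, against which the treated list held 2 peaks, the wider of 1500 bp, while its widest treated peak, of 2500 bp, lay elsewhere on the gene. SLIT2, which encodes an axon guidance ligand, had 3000 bp untreated and 1500 bp treated, and its untreated peak began 28 bp after the start. TTC34 had 3250 bp in both, MIRLET7A1HG, a host of let-7 microRNAs, 3000 bp in both, and RRP7BP, ENSG00000260126 and ENSG00000262660 lay between 3000 and 3250 bp in their wider list. Being inside a long record did not always mean being far from an end: 20 of 76 untreated wide peaks inside a gene (26.3%, 17.7% to 37.2%) and 24 of 68 treated ones (35.3%, 25.0% to 47.2%) began within 5 kb after the end of another same-strand gene, as did 12.4% and 11.7% of narrower peaks inside genes. Covering a start at that width were KIFBP (3000 and 2750 bp), SLC25A17 (3500 and 2750 bp), ZNF276 (3000 and 3250 bp) and ENSG00000226699 (2750 and 3250 bp). Relative to the start, the 5′ border of the wider peak lay at -2660, -3160, -3147 and -2918 bp in that order, so most of each peak was upstream of the gene.

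Peaks opposite to a gene, with no same-strand end within 5 kb before them, were few. ACP4 (3000 bp untreated, chr19:51297182-51300181, and 3250 bp treated), FSTL3 (2750 and 3000 bp, treated chr19:675345-678344), ZRANB2-AS1 (2750 bp in both, chr1:71518924-71521673) and HHAT (2500 bp in both, untreated chr1:210545463-210547962) were the widest of them. Among wide peaks with no gene, one of 3000 bp on chr12:120728296-120731295, minus strand and the same in both lists, lay over RNU4-1 and RNU4-2, the genes of the U4 spliceosomal RNA. Peaks at chr1:35638147-35641146 (untreated, 3000 bp, and 3250 bp treated) and chr9:46119768-46122517 (untreated, 2750 bp, and 2500 bp treated) were others. On the contigs chr7_gl000195_random and chrUn_gl000220 the widest had 3000 bp untreated and 3250 bp treated, and 3000 bp untreated and 2000 bp treated. Genes on these contigs were not part of the annotation used.

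The gene lists were read with the 5 kb after each gene included. Cytosolic ribosomal protein genes had a wide peak at 51 of 88 genes in untreated cells and 47 of 88 in treated cells, and any peak at all at 82 in each. That is 58.0% and 53.4% of the list, beside 3.14% and 3.04% of all 20176 protein-coding genes. Of the ribosomal protein genes with a peak, 62.2% and 57.3% thus had a wide one, beside 9.66% and 8.90% of all protein-coding genes with a peak. On the gene itself, without the 5 kb, 27 of 74 and 24 of 75 with a peak had a wide one, beside 6.16% and 5.32% of all protein-coding genes with a peak there. Of heat shock protein genes, 6 and 7 of 29 had a wide peak (20.7% and 24.1%). On the gene itself 0 of 18 with a peak had a wide one in both lists, and nothing is read from so few genes. HSPA1B (2750 and 2500 bp), HSPA4 (2250 bp in both), and HSPD1, the mitochondrial Hsp60 (2250 and 2000 bp), were further members, with HSPA8 and HSP90AA1 above.

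The next lists are read against the same 3.14% of all protein-coding genes in untreated and 3.04% in treated cells. Translation factors had a wide peak at 12 and 11 of 63 genes (19.0% and 17.5%), including EEF2, the translocation factor (2750 and 2500 bp), and EEF1A1, which brings aminoacyl-tRNA to the ribosome (2500 and 2250 bp). SR and hnRNP proteins, which act in splicing, had 7 and 10 of 36 (19.4% and 27.8%), including SRSF3 (2500 bp in both), HNRNPK (2500 bp in both) and HNRNPU (1000 bp untreated and 2750 bp treated). Helicases of the DEAD and DEAH families had 7 and 6 of 54 (13.0% and 11.1%), with DDX21 (3000 and 2750 bp), DHX9 (2750 bp in both), DDX3X (2500 bp in both) and DDX56 (2500 and 2000 bp) the widest. The peak counted for DDX21 is the one on the start of KIFBP, the next gene on the same strand. Actins and tubulins had 4 and 5 of 22 (18.2% and 22.7%), with ACTB (2000 and 2250 bp) and TUBA1C (2250 and 2000 bp) beside those above. ID genes had 3 of 4 and 2 of 4, the other members being ID2 (2000 bp untreated, 1750 bp treated) and ID4 (1750 and 2250 bp).

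Replication-dependent histones had a wide peak at 8 and 6 of 64 genes (12.5% and 9.38%, beside 3.14% and 3.04% of all protein-coding genes), among them H1-2 and H1-3 with 2000 bp in both lists. Immediate early genes had 2 of 26 in each list (7.69%). IER3 was wide in both (2000 and 2250 bp), JUN in untreated cells (2000 against 1500 bp) and KLF6 in treated cells (2250 against 1750 bp). Of the nuclear noncoding RNAs listed, 1 of 6, NEAT1, had a wide peak. HOX genes, which pattern the body axis, had a peak at 24 of 39 genes in each list, and a wide one at 0. The RNA polymerase III RNAs had a peak at 2 and 3 of 7 genes and a wide one at 0. Over all protein-coding genes with a peak the share with a wide one was 9.66% and 8.90%, and nothing is read from counts of 0 in lists this small. These counts are descriptions of lists chosen with results of these data known.

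Host genes of snoRNAs lay, on the same strand, under 23 untreated wide peaks (3.53%, 2.37% to 5.25%) and 20 treated ones (3.20%, 2.08% to 4.89%), against 2.39% (2.10% to 2.72%) and 2.36% (2.09% to 2.67%) of narrower peaks, so the intervals of wide and narrower peaks overlapped. With the 5 kb after the gene included, 55 and 54 of 536 hosts had a wide peak. These were 21.8% of the 252 and 20.6% of the 262 hosts with any peak, beside 9.66% and 8.90% of all protein-coding genes with a peak. After SNHG19, the hosts with the widest peaks were HSPA8, RPL10, RPS12, SNHG16, SNHG25, and MATR3 together with SNHG4, whose peak is the same one. For the snoRNA itself, wide peaks again offer more bases that can cover it. The snoRNA lay under 6 untreated wide peaks (0.922%, 0.423% to 2.00%) and 5 treated ones (0.800%, 0.342% to 1.86%), against 0.136% and 0.172% of narrower peaks. They were SNORD60 in SNHG19, SNORD104 in SNHG25, SNORA70 in RPL10 and SNORD118 (the U8 snoRNA, in the record of TMEM107) in both lists, SNORD45A with SNORD45C in RABGGTB and SNORD15A in RPS3 in untreated cells, and SNORD88C in treated cells. The snoRNA sequences under the widest of these peaks are given. The peak over SNORD88C met no coding or lncRNA gene, so no host is named for it. In the box C/D snoRNAs (SNORD), which guide ribose methylation, capitals mark the first match to TGATGA and the last match to CTGA, the letters of boxes C and D, and in the box H/ACA snoRNA (SNORA), which guides pseudouridylation, the last ACA.
SNORD60, chr16:2205024-2205106, minus strand: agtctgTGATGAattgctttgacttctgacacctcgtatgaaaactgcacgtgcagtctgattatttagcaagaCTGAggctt
SNORA70, chrX:153628622-153628756, plus strand: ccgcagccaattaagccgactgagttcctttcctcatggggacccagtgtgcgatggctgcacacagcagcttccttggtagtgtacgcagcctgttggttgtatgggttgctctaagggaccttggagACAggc
SNORD104, chr17:62223443-62223512, plus strand: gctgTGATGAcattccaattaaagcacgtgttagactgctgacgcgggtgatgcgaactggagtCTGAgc
SNORD88C, chr19:51305585-51305675, minus strand: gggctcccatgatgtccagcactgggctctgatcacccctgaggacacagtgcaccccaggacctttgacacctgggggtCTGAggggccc
SNORD88C holds no TGATGA.

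Nearly every wide peak had a partner on the same strand in the other list, 647 of 651 untreated (99.4%, 98.4% to 99.8%) and 619 of 625 treated (99.0%, 97.9% to 99.6%), where 74.6% of all untreated and 69.2% of all treated peaks did. More bases give more room for an overlap. With at least 50% of both peaks shared, the shares were 91.1% (88.7% to 93.0%) and 91.0% (88.5% to 93.0%) of wide peaks, and 67.8% and 62.3% of narrower ones. The 4 untreated peaks without a partner were all 2000 bp wide. They included peaks downstream of RBM42 (chr19:36129061-36131060) and C5orf22 (chr5:31557416-31559415), and one on the end of PPP2R1A, a scaffold subunit of protein phosphatase 2A (chr19:52732682-52734681). The 6 treated ones measured 2500 bp downstream of CTTNBP2NL, on WNT2B (chr1:113006708-113009207), 2250 bp in the record of ACAD9 (chr3:128639687-128641936), 2250 bp downstream of NSUN5 (chr7:72713789-72716038), and 2000 bp downstream of ZBTB4 (chr17:7359501-7361500), downstream of LRRC37B (chr17:30381060-30383059) and inside GCNA (chrX:70804081-70806080).

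Partners were narrower for 337 of 647 matched untreated wide peaks (52.1%, 48.2% to 55.9%), equal for 172 and wider for 138. From the treated side 325 of 619 partners were narrower (52.5%, 48.6% to 56.4%), 172 equal and 122 wider. Over all matched peaks, partners were narrower for 25.6% of untreated and 24.9% of treated peaks, and equal for 48.7% and 48.4%. As the peaks were chosen for their width in one list, the choice itself bears on these counts in both directions and nothing is read from them. Where the partner was wide too, at 432 loci, the treated peak was wider at 138 (31.9%, 27.7% to 36.5%), the untreated one at 122 (28.2%, 24.2% to 32.7%), and the width was equal at 172 (39.8%, 35.3% to 44.5%). Widths differed by at most 250 bp at 331 of these loci (76.6%, 72.4% to 80.4%). Summed over them, the peaks measured 1043750 bp untreated and 1047000 bp treated.

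**Figure D4:**
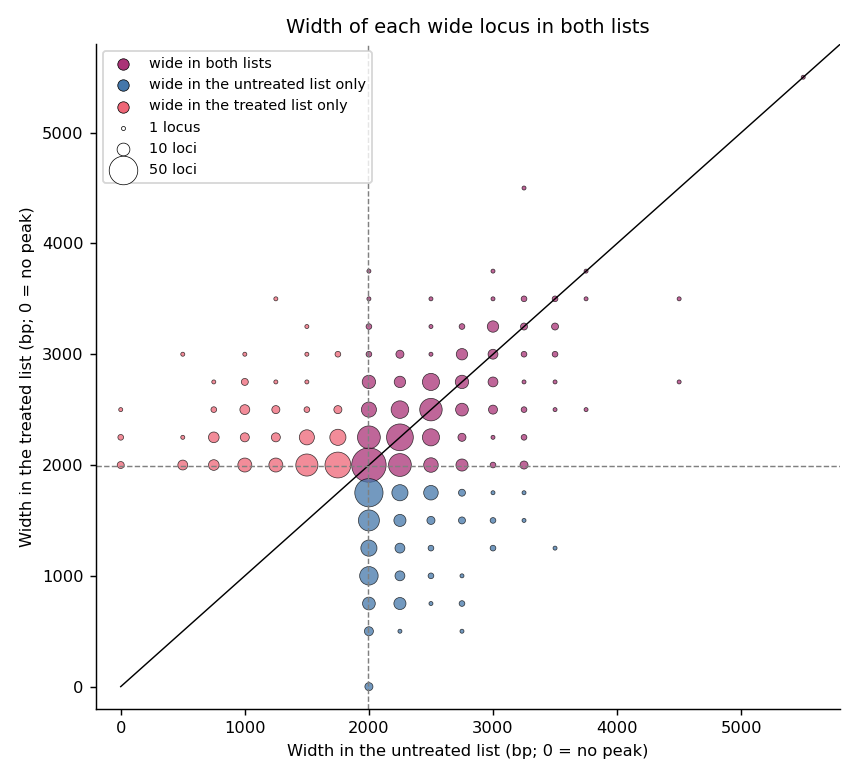
Width in the untreated list (x axis, bp) and in the treated list (y axis, bp) of the widest peak at each wide locus, with the area of a point proportional to the number of loci; 0 means no overlapping peak on the same strand. The 432 loci wide in both lists (purple) lie around the line of equal width, with 138 above it, 122 below it and 172 on it.

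At the 432 loci, both borders were the same at 134, the 5′ border at 244 (56.5%, 51.8% to 61.1%) and the 3′ border at 222 (51.4%, 46.7% to 56.1%). Where the 5′ border differed, the treated one lay further downstream at 122 loci and upstream at 66. The 3′ border of the treated peak lay further downstream at 142 and upstream at 68. Both borders were thus more often displaced in the direction of transcription than against it. No replicate lists say how often borders move between 2 samples of the same condition. Displacements were not counted for narrower peaks, so whether wide peaks differ from them in this is unknown. A wide peak was met by 2 or more peaks of the other list at 51 untreated (7.83%, 6.01% to 10.2%) and 24 treated members (3.84%, 2.59% to 5.65%), beside 0.880% and 0.469% of all peaks. A wider peak has more room to meet several. Of all wide peaks, 20.6% untreated and 21.4% treated had identical borders in the other list, against 33.0% and 30.2% of narrower peaks.

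The loci with the largest width differences were wider in untreated cells by 2250 bp at DRAM2 (2750 against 500 bp) and ID1, and by 2000 bp downstream of CERCAM (2750 against 750 bp) and on chrUn_gl000220. There were 7 loci at 1750 bp, among them NEAT1 and RRM2. In the other direction NBPF12 was wider in treated cells by 2500 bp (500 against 3000 bp), PAGR1 by 2250 bp (1250 against 3500 bp), and OGFR (1000 against 3000 bp) and the peak downstream of CDKN2A (750 against 2750 bp) by 2000 bp. There were 8 loci at 1750 bp, among them IFRD2 (1500 against 3250 bp) and RECQL5 (1000 against 2750 bp). Each difference uses only the widest peak of the other list. That list held 2 peaks against the wide one at ID1, NEAT1, RRM2, PAGR1, OGFR and RECQL5, and 3 on chrUn_gl000220. At these loci a region split into several peaks also counts as narrower. Loci wide in both lists, in the untreated list only and in the treated list only had much the same makeup: 72.2% (67.8% to 76.2%), 68.9% (62.5% to 74.7%) and 72.0% (65.3% to 77.9%) covered an end or lay downstream.

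Wide peaks had a lower median GC content than narrower ones, and the gap was larger among peaks on a start than among those downstream. The median GC content of wide peaks was 50.1% untreated, with quartiles at 45.6% and 55.6%, against 56.7% for narrower peaks. In treated cells the quartiles of wide peaks were 45.4% and 56.1%, and those of narrower peaks 50.6% and 64.6%. Among downstream peaks alone it was 49.6% wide and 49.4% narrower in untreated cells, and 48.9% and 50.5% in treated cells. Among peaks that covered a start only it was 50.5% wide and 62.8% narrower untreated, and 56.0% and 63.7% treated. GC skew, the excess of G over C on the strand of the peak as a share of both, had medians of 0.0065 and -0.0014 in wide peaks. A G-quadruplex motif, here 4 runs of 3 or more G with loops of 1 to 7 bases on the strand of the peak, was in the central 500 bp of 8.76% of wide untreated peaks (6.82% to 11.2%) and 6.88% of treated ones (5.15% to 9.14%), against 12.3% (11.7% to 13.0%) and 13.5% (12.9% to 14.2%) of narrower peaks. Anywhere in the peak, where wide peaks offer more bases, it was in 195 of 651 wide untreated and 183 of 625 wide treated peaks (29.3%), against 17.4% and 18.7% of narrower ones.

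**Figure D5:**
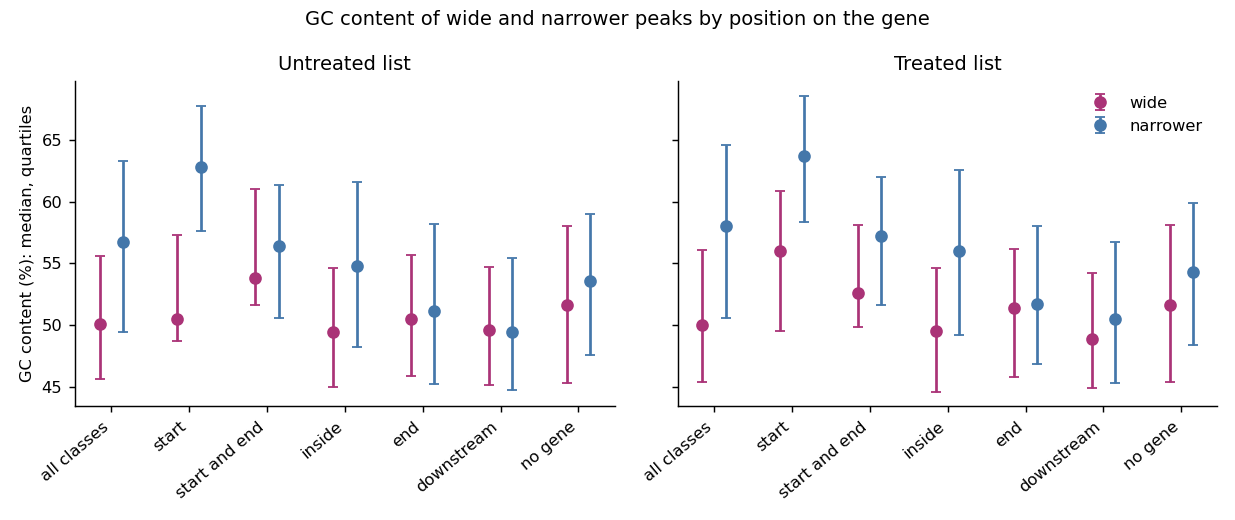
GC content (y axis, %) of wide and narrower peaks by position on same-strand genes (x axis) in the untreated (left) and treated (right) lists, with points at the median and bars from the lower to the upper quartile. Downstream peaks have medians between 48.9% and 50.5% whatever their width, and narrower peaks on a start stand at 62.8% and 63.7%.

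Wide peaks were spread over all chromosomes analysed. Their share of a chromosome's untreated peaks was 10.8% on chromosome 22 (31 of 288), 8.77% on chromosome 19 (60 of 684) and 1.77% on chromosome 18 (2 of 113). In treated cells it was 8.98%, 7.72% and 2.31%.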

How the data were processed

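Strand-specific kethoxal-assisted sequencing (spKAS-seq) was run on HEK293T cells of both conditions, with 2 samples of each and 2 inputs. The study's methods name Trim Galore for adapter removal, Bowtie2 for alignment (genome hg19) and Picard for marking duplicates, after which the authors took both replicates into a published R-loop procedure. Versions and thresholds are not given in the sources used here. The authors deposited 1 list per condition, attached to replicate 1, with 4 columns: chromosome, start, end and strand. Read depth and signal were not analysed here, and cell type markers cannot be read from such lists.

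A strand with an excess of labeled single-stranded DNA makes a peak, so 2 overlapping transcripts of opposite strands can hide each other, and widths are limited by the 250-bp grid. Peaks were read against GENCODE release 44 mapped to GRCh37 (protein-coding and lncRNA genes, canonical transcripts). Overlap meant at least 1 bp on the same strand. The 5-kb window after ends and the position classes were chosen after the data were seen. snoRNA hosts were coding or lncRNA genes with an annotated snoRNA inside them on the same strand. Base composition was not computed for peaks with unknown bases over more than 50% of their width, which removed those of chromosome Y. Intervals of shares are 95% Wilson intervals. The members, gene lists and rules were chosen with earlier results of these data known. Named were the loci with a peak of 3000 bp or more, the widest peaks without a partner, the loci with the largest differences, the widest members of each gene list, the widest snoRNA hosts, antisense and intergenic peaks, and peaks next to the width limit. Other members named were chosen after their values were seen. A few loci that this rule takes in are not reported here. The classification and matching were tested on 280 simulated peaks, with 0 assigned to a wrong class or partner. Python 3.11.15, pandas 2.3.3, numpy 2.4.6, pysam 0.24.0 and matplotlib 3.10.9 were used.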

Additional observations from a re-analysis of the deposited data

How the results depend on the processing

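No paired analysis was possible because the peaks come as 1 list for untreated and 1 for treated cells. Depth, peak height and replicate spread are unknown for these lists, so a width cannot be set against its error, and replicates could not be left out. With the limit 1 step of 250 bp lower, the number of wide untreated peaks was 1004, the share with a partner 98.1% untreated, and in treated cells the shares covering a start, covering an end, and at or after an end were 13.5%, 21.4% and 68.2%. With it 1 step higher there were 383 untreated and 381 treated peaks, 100% of the untreated ones had a partner, and 61.6% and 61.9% were wide in the other list too, against 66.4% and 69.1%. Where 50% of both peaks had to be shared, 91.1% and 91.0% had a partner, and with 50% of the wide peak covered, 95.7% and 93.4%. A same-strand gene was under 42.9% and 41.1% with coding genes only, and under 30.4% and 28.2% with 50% of the peak inside it. With any annotated transcript, 13.1% and 12.6% covered a start and 31.3% of untreated peaks an end. With coding genes only, 7.53% of untreated peaks covered a start. With peaks extended by 250 bp, starts were covered by 12.9% and 12.5% and ends by 36.4% and 33.8%. With the snoRNA itself in place of its host, 0.922% and 0.800% of wide peaks lay on one, and with hosts named SNHG only, 0.768% and 0.640%. With a window of 2 kb after the end in place of 5 kb, an alternative chosen after seeing the data, 65.6% and 63.8% lay at or after an end. The other 44 of 76 alternative values lay within the interval or spread of the reported value or, for a count, within 1.5 times of it. They include those for summed widths and for base composition in the central 500 bp. Among them, the median GC skew of treated wide peaks changed sign. It was -0.0014 as reported, 0.0059 in the central 500 bp and 0.0023 with the limit 1 step higher. The causes of these differences were not tested.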
